A study of Mus musculus with 5 samples.

Results

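Asip and Pomc encode the opposing ligands that set which pigment a melanocyte makes, and this account describes every called region of H2AK119ub and H3K27me3 over each gene and 150 kb either side. The members were fixed by name, as 2 of 21631 protein-coding genes, and their windows held 42 of the 48257 regions in both lists. The agouti gene appears in the RefSeq table under its classical symbol, a, with gene ID 50518, and is called Asip here. Pomc has gene ID 18976.

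Chromatin was prepared from basal progenitors of the back skin epidermis of control mice at postnatal day 71. The mice carried K14-RFP and K10-H2B-GFP, reporters under keratin promoters of the basal and the suprabasal layer, and the sort took Sca1-positive, RFP-high, GFP-negative cells. The study made 2 H2AK119ub libraries, 2 H3K27me3 libraries and 1 input library, all from this single condition, and the values are 1 list of region positions per mark (33155 and 15102 regions). Strain, sex, number of mice and any pooling of animals are not stated in the labels. Height, score, read depth and replicate spread were not analysed here, so a stretch without a region may carry the mark below an unknown threshold, and no difference below has a test. H3K27me3 was listed neither at an end nor inside any of 5 basal epidermal genes, Krt5, Krt14, Trp63, Itgb4 and Itga6. These genes were picked with their values in view, and 74.3% of all protein-coding genes also had none in their span. They are therefore no check of cell identity, and none was made.

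Agouti signalling protein is a secreted antagonist of the melanocortin 1 receptor. In hair follicles it is made mainly by dermal papilla cells, not by keratinocytes, and it shifts neighbouring melanocytes from black eumelanin to yellow pheomelanin. Pomc, pro-opiomelanocortin, is the precursor from which α-melanocyte-stimulating hormone is cut, and that hormone activates the same receptor. The pituitary is its main source, and keratinocytes make it after ultraviolet exposure. H3K27me3 is written by Polycomb repressive complex 2 and H2AK119ub by Polycomb repressive complex 1, and both marks are associated with silent developmental genes, often at sequence rich in CG dinucleotides.

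The promoters of the genes in the windows carried different states, and 4 of them are shown because the results turn on that contrast. Each is RefSeq sequence of GRCm38.p6, the build also called mm10, from 250 bases before to 50 bases after the listed start, written along the gene's strand with CG dinucleotides in capitals. The Asip promoter (chr2:155013320-155013619, plus strand) lay under both marks, and so did the promoter of Efr3b (chr12:4038866-4039165, minus strand), a plasma membrane scaffold gene next to Pomc. The Pomc promoter (chr12:3954695-3954994, plus strand) lay under H3K27me3 alone. The promoter of Ahcy (chr2:155074448-155074747, minus strand), an enzyme of the methionine cycle next to Asip, lay under neither mark. An H2AK119ub region, however, began only 0.001 kb past the upper edge of the Ahcy promoter.
Asip: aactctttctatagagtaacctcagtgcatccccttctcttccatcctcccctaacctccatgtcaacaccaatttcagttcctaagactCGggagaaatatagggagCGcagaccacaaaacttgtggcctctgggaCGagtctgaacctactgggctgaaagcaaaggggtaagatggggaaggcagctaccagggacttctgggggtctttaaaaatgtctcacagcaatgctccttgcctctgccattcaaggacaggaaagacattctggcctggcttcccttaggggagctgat
Pomc: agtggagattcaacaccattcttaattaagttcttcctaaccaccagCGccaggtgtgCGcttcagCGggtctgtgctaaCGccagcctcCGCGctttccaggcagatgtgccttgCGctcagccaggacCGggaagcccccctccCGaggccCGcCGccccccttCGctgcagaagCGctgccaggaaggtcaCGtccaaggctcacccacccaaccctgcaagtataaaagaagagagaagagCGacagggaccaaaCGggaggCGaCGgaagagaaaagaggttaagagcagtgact
Efr3b: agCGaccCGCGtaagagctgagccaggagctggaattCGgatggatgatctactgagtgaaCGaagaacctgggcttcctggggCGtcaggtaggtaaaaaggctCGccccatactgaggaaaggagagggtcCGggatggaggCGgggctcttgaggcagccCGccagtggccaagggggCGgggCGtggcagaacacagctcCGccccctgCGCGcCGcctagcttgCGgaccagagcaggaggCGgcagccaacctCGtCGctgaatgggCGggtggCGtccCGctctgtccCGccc
Ahcy: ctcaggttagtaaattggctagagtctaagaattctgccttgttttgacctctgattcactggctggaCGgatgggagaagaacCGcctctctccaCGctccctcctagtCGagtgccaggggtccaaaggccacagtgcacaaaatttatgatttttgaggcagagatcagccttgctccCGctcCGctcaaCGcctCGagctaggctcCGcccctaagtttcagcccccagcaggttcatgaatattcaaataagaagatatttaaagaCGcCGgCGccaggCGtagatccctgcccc

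The 2 ligand promoters differed in sequence as well as in marks. The Asip promoter held 3 CG dinucleotides, and 17.6% of the 21045 promoters of protein-coding genes in the table held fewer. The Pomc promoter held 18, with 59.3% of promoters holding fewer. Asip thus carried both marks over its only listed promoter, which was poor in CG in a table with a median of 13. The start of that promoter lies 63.0 kb inside the annotated gene, and any other start of Asip was not analysed here. Among the 5738 promoters within 2 CG dinucleotides of the Asip count, 32.5% were touched by H2AK119ub, 15.1% by H3K27me3 and 10.7% by both. Among the 2366 promoters within 2 of the Pomc count the shares were 45.0%, 21.9% and 19.4%. Over all promoters H2AK119ub touched 40.5%, H3K27me3 19.2% and both marks 16.0%, and H3K27me3 without H2AK119ub, the state of Pomc, was found at 3.20%.

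Of 4 motifs searched on both strands, TATAAA was found in the Pomc promoter, beginning 25 bases before the start, and not in the Asip promoter. This TATA box core was present in 12.7% of promoters. CANNTG, the E-box that basic helix-loop-helix factors bind, occurred at 2 places in the Pomc promoter, as CAGGTG 200 bases and CAGATG 147 bases before the start, and 69.0% of promoters held it. GGGCGG, the core that Sp factors bind, was matched once in Pomc, on the opposite strand as CCGCCC 95 bases before the start, and was present in 46.7% of promoters. Asip held none of those 3 and a single CCAAT, 181 bases before the start, a motif found in 38.5% of promoters and not in Pomc. The motif matches do not overlap one another, and they are matches of letters only.

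Over Asip lay a series of H3K27me3 regions that began upstream of the gene and stopped before its 3′ end, with H2AK119ub regions towards either side and a wide gap between them. RefSeq places the gene at chr2:154950599-155051012, a span of 100.4 kb on the plus strand. The start site in the promoter table, at 155013570, lies 63.0 kb inside that span. The span is that of all transcripts the table lists for the gene, whose own positions and exons were not analysed here. The reference assembly is of C57BL/6J, a nonagouti strain, and distances below are from the listed start site.

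**Figure D1:**
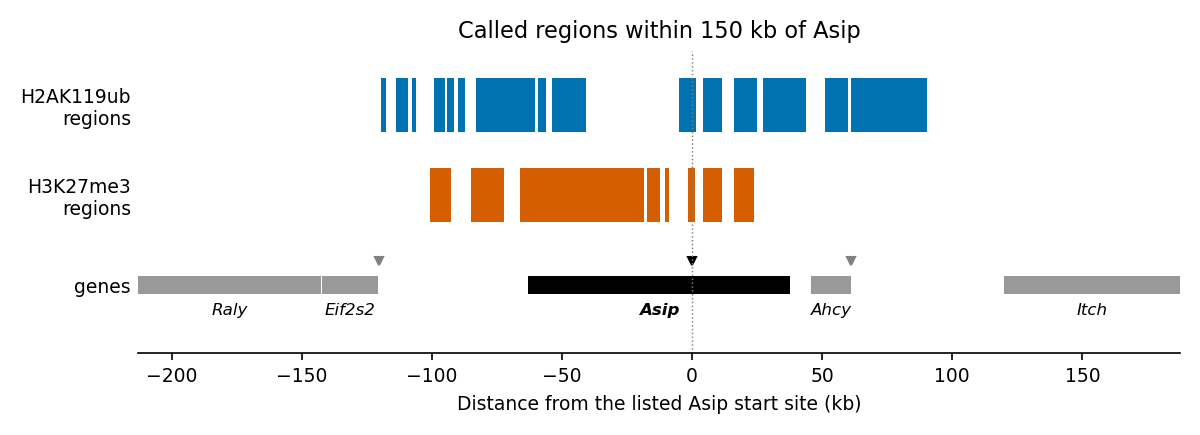
Called regions of H2AK119ub (upper row) and H3K27me3 (middle row) along the Asip window, by distance from the listed start site in kb. Bars in the bottom row are protein-coding genes, cut at the window's edges, and triangles are promoters in the RefSeq table. H3K27me3 regions run from 100.9 kb before to 23.7 kb after the start, and no H3K27me3 region lies beyond that point.

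The window held 8 H3K27me3 regions, 2 before the gene and 6 touching it. The outermost, of 8.29 kb (154912699 to 154920988), lay 29.6 kb before the gene and was 70.0% covered by H2AK119ub. The next, of 12.8 kb (154928553 to 154941367), lay 9.23 kb before the gene and was 83.8% covered. Both upstream regions lay clear of any protein-coding gene.

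The largest H3K27me3 region of the locus, of 47.9 kb (154947273 to 154995164), crossed the upstream end of Asip and filled the 4 bins of 10 kb from 60 to 20 kb before the listed start. It was wider than 94.1% of the H3K27me3 list, and 46.0% of it lay under H2AK119ub. Towards the start site followed regions of 5.16 kb (154996024 to 155001185) and 1.54 kb (155003097 to 155004640), both without any H2AK119ub. The H3K27me3 region over the promoter was small, at 2.67 kb (155012031 to 155014700), reaching from 1.54 kb before to 1.13 kb after the start, and H2AK119ub covered all of it. Past the start lay regions of 7.53 kb (155017602 to 155025129) and 7.52 kb (155029737 to 155037260), of which 98.0% and 100% lay under H2AK119ub.

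H2AK119ub was listed in 15 regions of the Asip window, 6 before the gene, 7 touching it and 2 after it. The 6 upstream regions were short, at 1.83, 4.35, 1.55, 4.32, 2.49 and 2.86 kb in order towards the gene, and the first, at 154893929, began 0.77 kb from the promoter of Eif2s2, a translation initiation factor gene. Of these 6, the fourth and the fifth met H3K27me3. A 22.5 kb region (154930624 to 154953141) then crossed the upstream end of Asip, with 73.8% of it under H3K27me3.

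Inside the gene, H2AK119ub regions of 3.11 kb (154954290 to 154957400) and 13.1 kb (154959712 to 154972762) lay wholly within the 47.9 kb H3K27me3 region. A gap in H2AK119ub of 35.8 kb followed, from 154972763 to 155008545, and H3K27me3 covered 81.3% of it. The promoter lay under a 6.40 kb H2AK119ub region (155008546 to 155014948), and H3K27me3 covered 41.7% of that region. Downstream of it, regions of 7.38 kb (155017603 to 155024982) and 8.88 kb (155029690 to 155038572) were 100% and 84.7% covered by H3K27me3. The last region touching Asip, of 16.5 kb (155040977 to 155057498), ran across the 3′ end and met no H3K27me3, and neither did the regions of 8.75 kb (155064618 to 155073363) and 29.1 kb (155074749 to 155103853) beyond it.

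Cut at the listed start site, the 2 parts of Asip had different shares, although an H2AK119ub and an H3K27me3 region ran across that site. The 35.8 kb gap in H2AK119ub, which ended 5.02 kb before the start, falls wholly in the upstream part. From the upstream end to the listed start, 63.0 kb, H3K27me3 covered 83.9% and H2AK119ub 37.7%, and 32.6 kb lay under H3K27me3 alone against 3.49 kb under H2AK119ub alone. From the start to the 3′ end, 37.4 kb, the order turned, with H3K27me3 on 43.2% and H2AK119ub on 73.9%. There only 0.15 kb carried H3K27me3 without H2AK119ub, and 11.6 kb carried H2AK119ub alone. In the 150 kb after the gene no H3K27me3 was listed and H2AK119ub covered 29.6%, whereas in the 150 kb before it the shares were 16.3% and 24.9%.

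Some edges of the 2 marks lay close together from the Asip promoter onwards, and others did not. The H3K27me3 region of 7.53 kb began 1 bp from the start of an H2AK119ub region and ended 147 bp from its end. The region of 7.52 kb began 47 bp from an H2AK119ub start and ended 1312 bp from an H2AK119ub end. The region over the promoter began 3485 bp from an H2AK119ub start and ended 248 bp from an H2AK119ub end. Of the 8 H3K27me3 regions at Asip, 2 therefore began within 50 bp of an H2AK119ub start, and of the 6 at Pomc 0 did, where 1.73% of the whole H3K27me3 list did so. This 50 bp limit was set with those distances already known. Intervals between these paired regions, 2.65 and 4.71 kb in the H2AK119ub list, were nearly free of H3K27me3 too, with 0.038% and 3.12% covered. Read mappability there was not analysed here.

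The H3K27me3 regions of the Asip window had long intervals without H3K27me3 on either side. The 8 regions span 124.6 kb, of which they cover 75.0%. The preceding H3K27me3 region of the chromosome lies 166 kb away and the following 475 kb away. Of 12933 intervals between neighbouring autosomal H3K27me3 regions, with a median of 26.6 kb, 78.2% were shorter than the former and 91.6% shorter than the latter. Both intervals were measured from the outermost regions of the window. Each therefore had to reach past the window's edge, and these ranks are not a like comparison.

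None of the 4 protein-coding neighbours in the Asip window had H3K27me3, and 74.3% of all protein-coding genes had none in their span either. Raly, an RNA-binding protein gene, had H2AK119ub at 1 end. Eif2s2 and Itch, a ubiquitin ligase gene, had neither mark within their spans or at their ends. Ahcy, 8.30 kb from Asip, had H2AK119ub on 57.6% of its span, yet its promoter fell in an H2AK119ub gap of 1.39 kb, with the next region starting 1 bp past the promoter's upper edge. The Raly promoter, just outside the window, also fell in such a gap, of 0.98 kb.

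Pomc was wholly covered by H3K27me3, while H2AK119ub reached only its 3′ part. The gene spans 5.70 kb at chr12:3954945-3960643 on the plus strand, and its listed start is its lower-coordinate end. A 14.0 kb H3K27me3 region (3950272 to 3964245) reached from 4.67 kb before the start to 9.30 kb after it, past Pomc and over the 3′ end of Efr3b, which runs towards Pomc from the other side. It was wider than 71.0% of the H3K27me3 list, and 36.6% of it lay under H2AK119ub. The H2AK119ub region at Pomc, of 5.11 kb (3958165 to 3963275), lay entirely inside it, began 3.22 kb after the start and was wider than 32.4% of its list.

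**Figure D2:**
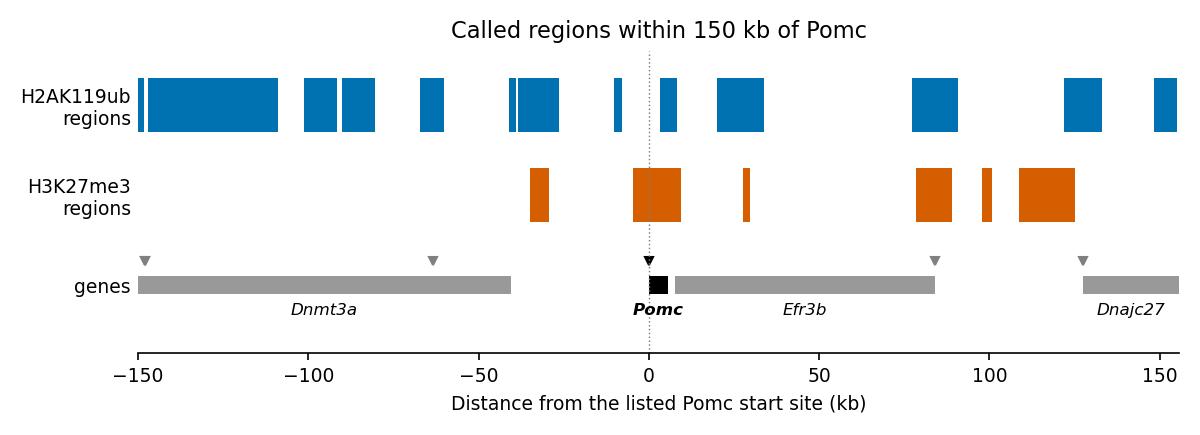
Called regions of H2AK119ub (upper row) and H3K27me3 (middle row) along the Pomc window, by distance from the Pomc start site in kb, with protein-coding genes as bars and promoters as triangles. The H3K27me3 region at 0 covers all of Pomc and its promoter, and the H2AK119ub region there begins 3.22 kb after the start.

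The first 3.22 kb of Pomc, with its promoter, thus carried H3K27me3 alone, inside an H2AK119ub gap of 11.0 kb from 3947176 to 3958164. H3K27me3 covered 71.8% of that gap. On its far side lay a 2.50 kb H2AK119ub region (3944674 to 3947175), 7.77 kb before the gene and without H3K27me3.

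The window of Pomc held 6 H3K27me3 regions, of which 1 lay before the gene, 1 over it and 4 after it. The upstream one, of 5.70 kb (3919925 to 3925624), was the first H3K27me3 region listed on chromosome 12 and lay wholly under H2AK119ub. After the gene, regions of 2.32 kb (3982436 to 3984758) inside Efr3b and 10.6 kb (4033329 to 4043942) over the Efr3b promoter lay wholly under H2AK119ub. Regions of 2.93 kb (4052900 to 4055829) and 16.4 kb (4063719 to 4080074) lay between Efr3b and Dnajc27, with 0% and 19.5% under H2AK119ub. From the last of these, 792 kb passed without an H3K27me3 region, longer than 95.1% of autosomal intervals. As at Asip, this interval had to reach past the window's edge.

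H2AK119ub was listed in 13 regions of the Pomc window, 8 before the gene, 1 across its 3′ end and 4 after it. The upstream side was taken up largely by Dnmt3a, a de novo DNA methyltransferase gene that carried H2AK119ub on 62.4% of its span and no H3K27me3. Its regions were 36.5 kb (3770079 to 3806555, which only enters the window), 38.1 kb (3807905 to 3846004), 9.73 kb (3853617 to 3863344), 9.85 kb (3864687 to 3874540), 7.25 kb (3887586 to 3894838) and 1.89 kb (3913896 to 3915781). The first 2 of the 3 Dnmt3a promoters in the table fell in the 1.35 kb gap between the 2 widest of these, and the third lay under the 7.25 kb region. A 12.2 kb region (3916405 to 3928615) between Dnmt3a and Pomc contained the upstream H3K27me3 region.

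After Pomc, H2AK119ub regions of 13.7 kb (3974866 to 3988613) and 13.4 kb (4032341 to 4045711) lay in Efr3b and at its promoter, with 16.9% and 79.4% under H3K27me3. Regions of 11.0 kb (4076882 to 4087913), over the promoter of Dnajc27, a gene for a small GTPase with a J domain, and 6.69 kb (4103256 to 4109949) completed the window. Efr3b was the only one of the 3 protein-coding neighbours with H3K27me3 in its span (12.8%, against 27.7% for H2AK119ub), and both marks lay at both of its ends. Over all protein-coding genes, 74.3% had no H3K27me3 in their span. Promoters in an H2AK119ub gap of up to 3 kb, as at Ahcy, Raly and Dnmt3a, made up 4.38% of all promoters, and this comparison was chosen after the values had been seen. Neither Asip nor Pomc had its promoter in such a gap.

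Both ligand genes were covered by H3K27me3 well beyond the median gene, and less so by H2AK119ub. H3K27me3 lay on 68.7% of the Asip span and 100% of the Pomc span, against a median of 0% over the 21631 protein-coding genes. Of these genes, 90.2% had a lower share than Asip and 93.6% a lower share than Pomc. For H2AK119ub the shares were 51.2% and 43.5% against a median of 8.69%, with 65.6% and 63.5% of genes lower. Both marks at once lay on 36.1% of Asip and 43.5% of Pomc, and 78.1% of genes had none. A short gene such as Pomc reaches 100% more easily than a long gene such as Asip.

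**Figure D3:**
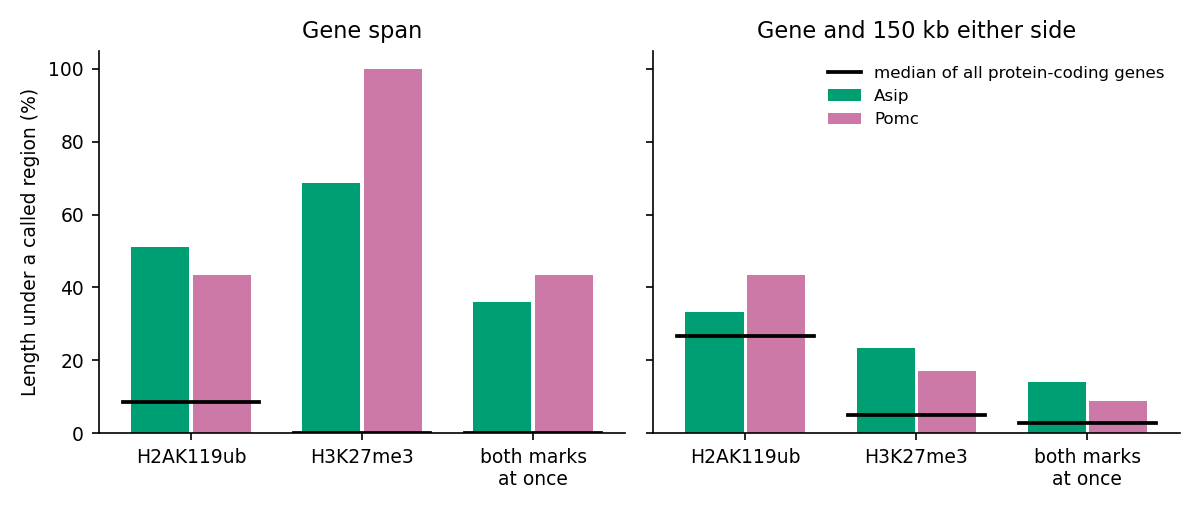
Share of length under a called region, in percent, for Asip and Pomc (bars) over the annotated gene (left) and over the gene with 150 kb either side (right), with the median of all protein-coding genes as a black line. H3K27me3 covers 68.7% of Asip and 100% of Pomc against a median of 0%.

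With 150 kb either side included, the order of the 2 loci for each mark was the reverse of that over the genes. For H2AK119ub this held at 150 kb only. Asip had the larger H2AK119ub share with 50 kb either side (63.7% against 33.5%) and with 500 kb (32.6% against 28.4%). H2AK119ub covered 133.1 kb of each window, which was 33.2% at Asip and 43.5% at Pomc, against a median of 26.6%. H3K27me3 covered 23.3% and 17.0%, against 5.00%. Both marks at once covered 14.0% and 8.81%, against 2.73%. Of all genes, 83.6% had less H3K27me3 than Asip in such a window and 76.4% less than Pomc, and for H2AK119ub 56.0% and 65.1% had less. Chromosome 2 as a whole was covered to 20.0% by H2AK119ub and 8.59% by H3K27me3, and chromosome 12 to 14.1% and 4.78%. In the windows 60.1% of the H3K27me3 length at Asip and 51.9% at Pomc lay under H2AK119ub, whereas 42.2% and 20.2% of the H2AK119ub length lay under H3K27me3.

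Set out by distance, H3K27me3 exceeded the mean of all promoters in 13 of 30 bins of 10 kb around the Asip start and in 10 of 30 around the Pomc start. Most of the remaining bins held none, 16 at Asip and 19 at Pomc. The mean of all promoters stayed between 11.3% and 16.5% per bin. For H2AK119ub the counts above the mean were 17 and 14 of 30, with the mean between 32.6% and 40.9%. Neighbouring bins share regions and are not independent. How many bins exceed the mean around other single promoters is not given here, so these counts have no background.

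**Figure D4:**
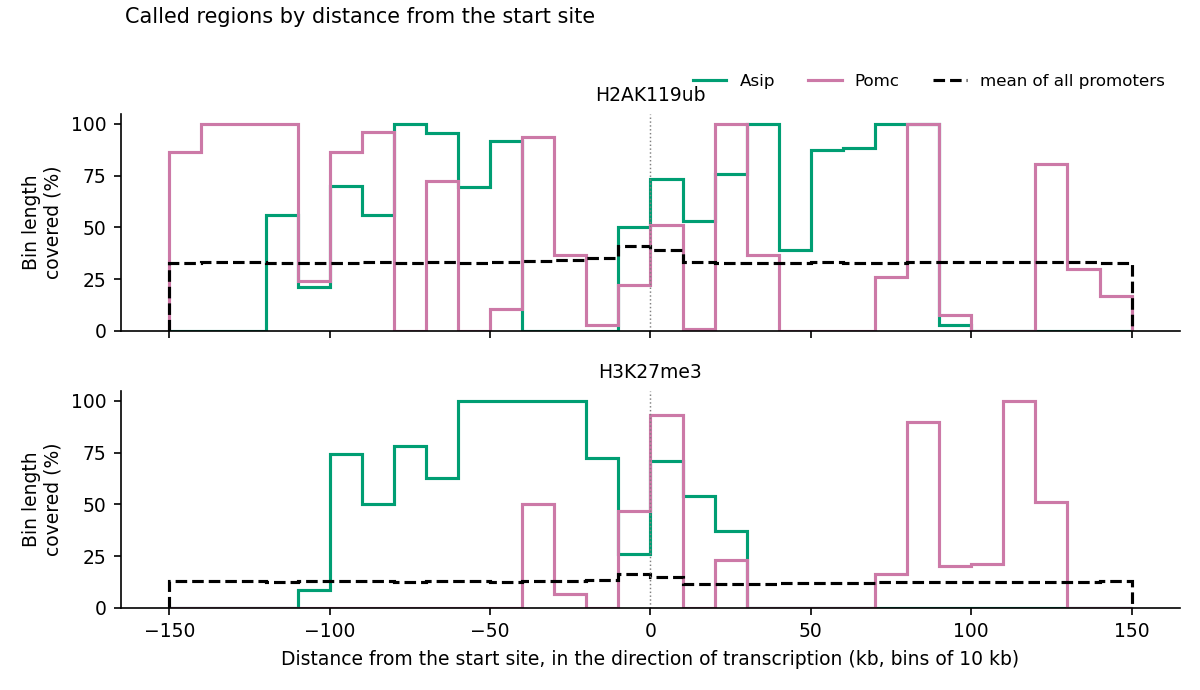
Share of each 10 kb bin under a called region, in percent, by distance from the start site for Asip, Pomc and the mean over promoters of protein-coding genes (dashed), with H2AK119ub above and H3K27me3 below. At Asip, H3K27me3 fills the 4 bins from 60 to 20 kb before the start, and at Pomc it covers 93.0% of the first bin after it.

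At the gene ends, each member lacked a mark at 1 end, where a region within 1 kb counted as at an end. Asip had H2AK119ub at both annotated ends and H3K27me3 at the upstream end alone. Pomc had H3K27me3 at both ends and H2AK119ub at the 3′ end alone, but with a limit of 5 kb it had H2AK119ub at both ends too. Over all protein-coding genes, 57.1% had H2AK119ub, 24.7% had H3K27me3 and 21.1% had both at an end.

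The other genes of the melanocortin pathway were marked in different ways at each step. Of 31 genes listed by role, 23 (74.2%) had H2AK119ub and 17 (54.8%) had H3K27me3 at an end, beside the backgrounds just given. The list was chosen with earlier results of these data known, so these counts and those by role below are description only. Counted at the ends only, both marks were found at 13 and H3K27me3 alone at 4, beside 21.1% and 3.58% of all protein-coding genes. H2AK119ub alone was found at 10 and neither at 4, and the shares of all genes in these states are not given here. The median share of the span was 6.71% for H2AK119ub and 1.97% for H3K27me3, beside 8.69% and 0% over all genes. Asip had H3K27me3 on 68.7% of its span, and 7 of the 31 genes lay above it. Of all protein-coding genes, 90.2% had a lower share than Asip.

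**Figure D5:**
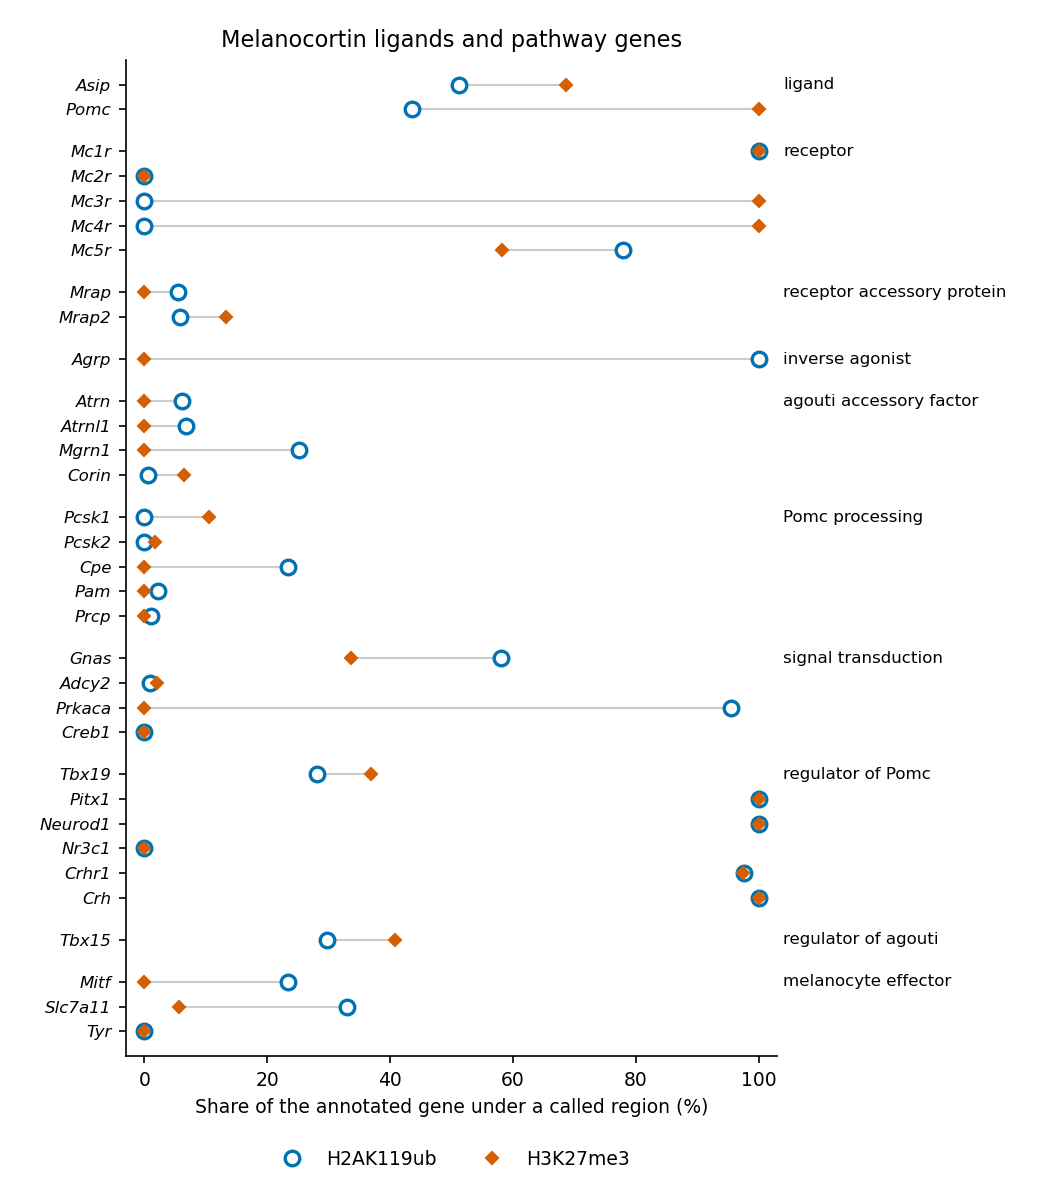
Share of the annotated gene under called H2AK119ub regions (open circles) and H3K27me3 regions (filled diamonds), in percent, for both ligands and 31 pathway genes grouped by role. Mc3r and Mc4r sit at 100% for H3K27me3 and 0% for H2AK119ub, while Agrp and Prkaca have H2AK119ub on nearly their whole span and no H3K27me3.

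Among the 5 melanocortin receptors, 4 had H3K27me3 at an end, beside 24.7% of all genes. Mc1r, the receptor on melanocytes for which both ligands compete, was fully covered by both marks, in a 17.1 kb H2AK119ub and a 9.17 kb H3K27me3 region. Mc3r and Mc4r, the receptors of the brain that control energy balance, were fully covered by H3K27me3 (regions of 7.69 and 5.91 kb) and had no H2AK119ub. Mc5r, the receptor of exocrine glands, had H3K27me3 on 58.2% and H2AK119ub on 78.0% of its span. Mc2r, the adrenal receptor for adrenocorticotropic hormone, had neither mark. Its accessory protein gene Mrap had H2AK119ub alone (5.48%), and Mrap2 had 5.80% H2AK119ub and 13.2% H3K27me3.

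Agrp, the agouti-related antagonist of the hypothalamus, differed from Asip in having no H3K27me3, with its whole span inside a 25.9 kb H2AK119ub region. All 4 genes for factors that act with agouti had H2AK119ub at an end, beside 57.1% of all genes, and 2 also had H3K27me3, beside 24.7%. Corin, a protease of the dermal papilla that limits agouti activity, had H3K27me3 on 6.38% of its span in a 13.2 kb region. Atrn, the attractin gene whose loss blocks agouti signalling, had H2AK119ub on 6.10% of its span. A 52.5 kb H3K27me3 region lay within 1 kb of the outer edge of Atrn without entering it. Atrnl1 (6.71%) and Mgrn1 (25.2%), the mahogunin ubiquitin ligase gene, had H2AK119ub alone.

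Of the 5 genes that process Pomc, 3 had H2AK119ub and 2 had H3K27me3 at an end, beside 57.1% and 24.7% of all protein-coding genes. Pcsk1 and Pcsk2, the prohormone convertases that cut Pomc into its hormones, had H3K27me3 over their promoters (regions of 5.69 and 9.10 kb) and no H2AK119ub, the same combination as the Pomc promoter. Cpe (23.4%), Pam (2.27%) and Prcp (1.07%), which trim, amidate and degrade the peptides, had H2AK119ub alone. At Prcp the widest region was only 0.636 kb. In total 4 of the 31 genes, Mc3r, Mc4r, Pcsk1 and Pcsk2, carried H3K27me3 alone at an end, beside 3.58% of all protein-coding genes.

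Of the 6 genes listed here as regulators of Pomc transcription, 5 carried both marks at an end, beside 21.1% of all protein-coding genes. Pitx1, Neurod1 and Crh were covered fully by both, and Crhr1, the receptor for corticotropin-releasing hormone, to 97.6% by H2AK119ub and 97.4% by H3K27me3. Tbx19, the T-box factor of pituitary corticotrophs, had 28.1% and 36.9%. Nr3c1, the glucocorticoid receptor that represses Pomc in the pituitary, had neither mark. Tbx15, the T-box factor that sets the dorsoventral boundary of coat colour, had 29.7% H2AK119ub and 40.8% H3K27me3, in regions of 49.1 and 62.0 kb.

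Downstream of the receptor, Gnas, the stimulatory G protein gene, had H2AK119ub on 58.1% and H3K27me3 on 33.7% of a span with 4 listed promoters, and Adcy2 had 0.89% and 1.97%. Prkaca, the catalytic subunit of protein kinase A, had H2AK119ub on 95.4% and no H3K27me3, and Creb1 had H2AK119ub near an end only. Of the melanocyte effectors, Mitf had H2AK119ub on 23.4% of its span and no H3K27me3, and Tyr, the enzyme that starts melanin synthesis, had neither. Slc7a11, the cystine transporter used for pheomelanin, had no mark at its annotated ends, but its only listed promoter was touched by H2AK119ub. H2AK119ub lay on 32.9% and H3K27me3 on 5.61% of its span.

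The genes most like each ligand were sought over 6 values, namely the shares of the span and of the 150 kb window under H2AK119ub, under H3K27me3 and under both, among autosomal genes outside the locus. For Asip the nearest, by Euclidean distance in percentage points, were Hrh2 (11.4), a histamine receptor gene, Sema5b (11.4), a semaphorin gene, Htr3b (12.7), a serotonin receptor subunit gene, Adcy5 (12.8), an adenylyl cyclase gene, and R3hdml (13.2). The median distance of the 20660 genes compared was 96.1. For Pomc they were Zfp648 (14.5), Ces3b (16.1), Tph1 (16.2), the enzyme that starts serotonin synthesis outside the brain, 1700024G13Rik (17.9) and Spata3 (19.6), with a median of 121 over 20661 genes. Tph1 had H3K27me3 on 100% and H2AK119ub on 53.6% of its span, beside 100% and 43.5% for Pomc. Hrh2 had 60.5% H3K27me3 and 50.1% H2AK119ub, beside 68.7% and 51.2% for Asip. These distances describe the 2 lists and carry no error.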

How the data were processed

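For each mark the authors deposited a table of called regions with only positions, per the file headers. The submitters' processing notes name Bowtie2 2.3.3.1, SAMtools 1.9 and build mm10, with no role given. How regions were called, with which threshold, and whether the input was used or replicates were pooled is not given in the sources used here. Depth is therefore unknown, and no test, interval or replicate error could be given. Starts were read as counted from 0. Genes and promoters came from RefSeq tables of GRCm38.p6, and both members matched 1 listed promoter each. Regions were assigned by an overlap of at least 1 bp, and covered length was computed with Python 3.11.15 and NumPy 2.4.6 by code tested on simulated regions. Backgrounds are shares of all genes or promoters and serve as description. Members, the pathway list and the rule for named genes (members, window neighbours, the whole pathway list, the 5 most similar genes with 1 per locus) were chosen with earlier results of these data known. The basal marker genes and the promoters printed were picked with their values in view.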

Additional observations from a re-analysis of the deposited data

How the results depend on the processing

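No paired analysis was possible because each mark has a single list of regions without replicate columns, and for the same reason no replicate could be left out. A value was taken as moved when it changed by more than 1.5 times, since no spread is known, and 76 of 92 recomputed values stayed within that factor. That total includes 18 values from a 1 bp shift of the starts, which could hardly move them. A changed window moved more, 5 of 10 values with 50 kb either side and 8 of 10 with 500 kb. Leaving out regions under 2 kb, reading starts as counted from 1, requiring 50% of a region inside the window, requiring a region on the end itself and ranking against autosomal genes only (added after seeing the data) moved none of the values recomputed under them. Joining gaps of up to 3 kb changed the Asip regions from 15 to 7 for H2AK119ub and from 8 to 5 for H3K27me3. Within 5 kb, H2AK119ub lay at 2 ends of Pomc instead of 1. With 50 kb either side, Asip was covered to 63.7% by H2AK119ub, 46.6% by H3K27me3 and 28.0% by both, and Pomc had 5 H2AK119ub and 3 H3K27me3 regions. With 500 kb either side, Asip had 39 and 13 regions, and H3K27me3 covered 11.3% and both marks 7.73%, while Pomc had 27 H2AK119ub regions, and the covered shares were 28.4% for H2AK119ub, 5.16% for H3K27me3 and 2.68% for both.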
